A study of Mus musculus with 6 samples.

Results

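The miRNAs described here are the products of the hairpins Mir146 and Mir146b in the dorsal striatum of mice 1 week after precipitated nicotine withdrawal. They were taken as every row of the miRNA table whose name begins with miR-146a or miR-146b, whichever arm of the hairpin it is. This gave 3 of 756 rows, namely mmu-miR-146a-5p, mmu-miR-146b-5p and mmu-miR-146b-3p (the prefix for mouse is dropped below), and all 3 were among the 699 rows that passed the filter on low values. The name miR-146a-3p is not among the rows used.

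Small RNA was sequenced from C57BL/6N mice aged 7 weeks. In the nicotine withdrawal group (3 libraries), mice received nicotine at 0.5 mg/kg once a day for 3 days, and 24 hours later mecamylamine, a blocker of nicotinic acetylcholine receptors, at 3.0 mg/kg. The saline control group (3 libraries) received saline. Tissue of both groups was taken 1 week after the last injection. Effects of nicotine and of mecamylamine cannot be told apart in this design. The labels speak of 3 mice for the withdrawal group, and each library was taken as 1 mouse; otherwise the p-values reflect only variation among libraries, which may be technical. The values are counts scaled by library size factors, called normalized reads below. From the step between values, the libraries were estimated to hold 44529730 to 53262896 reads in withdrawal and 40111870 to 50480767 reads in saline. The tissue is bulk, so more cells of a type and more RNA per cell cannot be told apart. miR-124-3p, which marks neurons, stood at 359314 ± 10019 normalized reads in withdrawal and 346052 ± 5816 in saline (SD, n = 3 each). It is 1 of 4 listed neuron miRNAs, of which 2 were higher in withdrawal. The summed level of the 4 was lower there, at 1458946 to 1508092 against 1587498 to 1625842 in saline.

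miR-146 is known for a negative feedback on inflammatory signalling. Toll-like receptors and the interleukin-1 receptor activate the transcription factor NF-kB, and NF-kB switches on the miR-146a gene. The mature miR-146a-5p represses Traf6 and Irak1, which carry the signal of the same receptors. In the brain it is known from microglia and astrocytes. A miRNA hairpin yields a 5p and a 3p arm, of which usually one, the guide, is loaded into Argonaute while the other is degraded. Bases 2 to 8 of the guide, the seed, decide most of its targets.

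The mature sequences show how alike the 5p arms are. They are from RefSeq (GRCm38.p6), given 5′ to 3′, with the seed in capitals; all 3 rows were matched by name.
miR-146a-5p: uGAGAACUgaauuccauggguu
miR-146b-5p: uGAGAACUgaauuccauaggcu
miR-146b-3p: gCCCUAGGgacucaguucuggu
The 5p arms share the seed GAGAACU and 20 of their 22 bases. Counted from 1 at the 5′ end of miR-146a-5p, the changes toward miR-146b-5p are G18A and U21C. The first 17 bases are identical, so a read that ends there matches both arms, and how the authors assigned such reads is not given in the sources used here. Among 1679 mature miRNAs of the reference table, these 2 are the ones with this seed, and the closest other sequence, miR-7689-3p, differs from either 5p arm at no fewer than 8 of 22 bases. The seed of miR-146b-3p, CCCUAGG, is unrelated.

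The hairpins lie on different chromosomes, and are shown with the mature arms in capitals to place the guide and its partner strand.
Mir146: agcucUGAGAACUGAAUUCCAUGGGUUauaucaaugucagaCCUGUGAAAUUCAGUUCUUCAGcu
Mir146b: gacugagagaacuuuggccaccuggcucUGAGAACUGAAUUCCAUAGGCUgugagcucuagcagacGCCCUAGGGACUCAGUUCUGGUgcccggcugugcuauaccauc
In GRCm38.p6, Mir146 (65 bases) is at chr11:43374397-43374461 on the minus strand and Mir146b (109 bases) at chr19:46342762-46342870 on the plus strand. In the GENCODE annotation of that assembly no other gene overlaps Mir146, and the nearest is the long noncoding RNA gene Gm12148 at 11.0 kb. Mir146b lies in an intron of Mfsd13a, on the same strand. Nfkb2, which encodes a subunit of NF-kB, lies 30.4 kb from it. The 3p arms differ far more than the 5p arms, with 4 of 22 bases identical position by position.

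Both guide strands were higher in withdrawal, by 14% for miR-146a-5p and 18.5% for miR-146b-5p, while the scarce miR-146b-3p did not pass the test. miR-146b-5p had 80076, 84530 and 93335 normalized reads in the withdrawal libraries 1, 2 and 3, against 70956, 72931 and 73441 in the saline libraries 1, 2 and 3. Every withdrawal library lay above every saline library, with withdrawal library 3 the highest. The means were 85981 ± 6747 in withdrawal and 72443 ± 1313 in saline (SD, n = 3 each). The log2 fold change (withdrawal over saline, on log2(value + 1), ± SE) was 0.24 ± 0.04, with a 95% interval of 0.15 to 0.34 (limma, Benjamini-Hochberg adjusted p = 0.00673 over all 699 miRNAs).

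miR-146a-5p had 7076, 7297 and 7958 normalized reads in the withdrawal libraries 1, 2 and 3, against 6498, 6539 and 6528 in the saline libraries. The groups did not overlap, and withdrawal library 3 was again the highest. The means were 7444 ± 459 in withdrawal and 6522 ± 20.8 in saline (SD, n = 3 each). The log2 fold change was 0.19 ± 0.04, with a 95% interval of 0.10 to 0.28 (limma, adjusted p = 0.0156). In the same test 6.58% of all tested miRNAs passed, made up of 3% of all tested that were higher and 3.58% that were lower in withdrawal. The groups did not overlap in 27.6% of all tested miRNAs (13% with withdrawal above). Ranked by size among the 21 miRNAs called higher, the rise of miR-146b-5p was the 6th and that of miR-146a-5p the 12th.

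**Figure D1:**
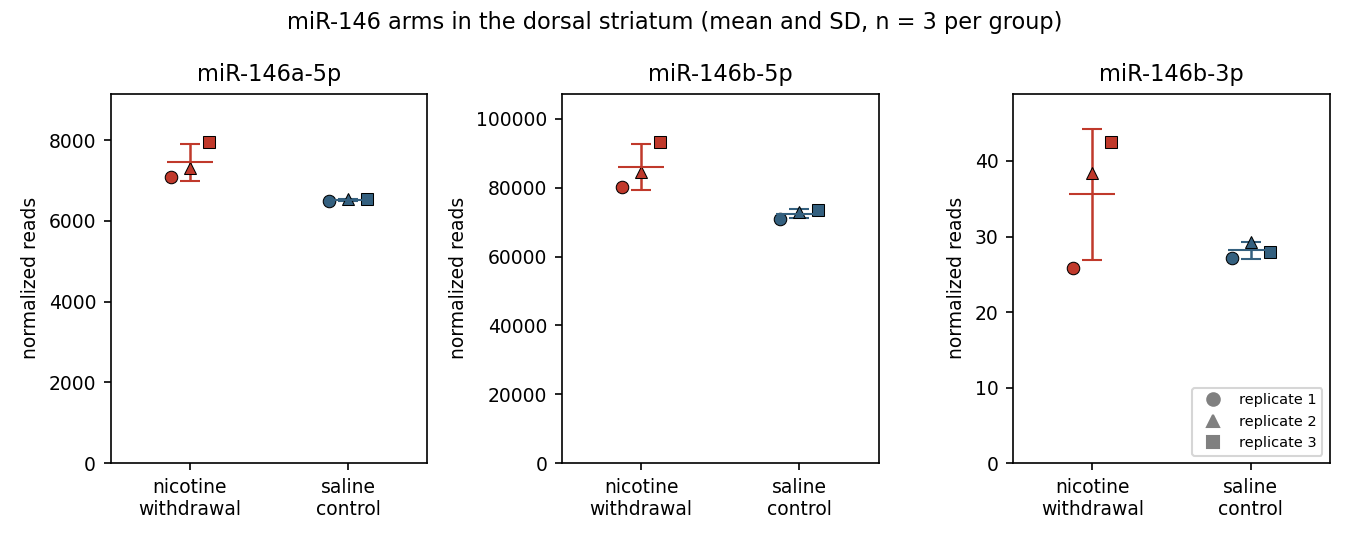
Normalized reads of miR-146a-5p, miR-146b-5p and miR-146b-3p per library, with withdrawal on the left and saline on the right of each panel; symbols give the replicate number and bars the mean and SD (n = 3 per group). Both 5p arms lie higher in each withdrawal library than in any saline library, while for miR-146b-3p withdrawal library 1, at 25.9, is the lowest of all 6.

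The calls rest on the estimate of spread. The withdrawal libraries varied more than the saline libraries, with a coefficient of variation of 7.85% against 1.81% for miR-146b-5p and 6.17% against 0.319% for miR-146a-5p. On the log2 scale, the residual SD came to 0.0814 for miR-146b-5p and 0.0622 for miR-146a-5p. miRNAs of their level were fitted at 0.0358 and 0.0447, and the test draws each value toward these. Without that trend of variance on level, miR-146b-5p had a limma adjusted p = 0.205 and miR-146a-5p an adjusted p = 0.216, and 0 of the 699 miRNAs passed (112 at an unadjusted p under 0.05). With quantile normalization miR-146b-5p stood at 0.24 (limma adjusted p = 0.078) and miR-146a-5p at 0.16 (limma adjusted p = 0.191).

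Withdrawal library 3 added to both rises, and both calls held without it. Relative to the saline mean, miR-146b-5p stood at 1.11, 1.17 and 1.29 in the withdrawal libraries 1, 2 and 3, and miR-146a-5p at 1.09, 1.12 and 1.22. Without library 3 the log2 fold changes were 0.18 ± 0.03 and 0.14 ± 0.04 (limma, adjusted p = 0.00222 and 0.0236). Library 3 also had the highest estimated depth, 53262896 reads. miR-146a-5p was the less stable of the pair when a control was left out, with a limma adjusted p = 0.0807 without saline library 2 and 0.0515 without saline library 3, at a log2 fold change of 0.19 each time. miR-146b-5p passed without any one library, most narrowly without saline library 2 (limma adjusted p = 0.0485).

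Most reads with the shared seed came from miR-146b-5p. By mean level it was the 63rd of the 756 miRNAs and miR-146a-5p the 181st. Per library, miR-146b-5p took the 62nd, 59th and 58th place in withdrawal and the 68th, 65th and 65th place in saline. Together the 5p arms had 87153, 91827 and 101294 normalized reads in withdrawal, against 77454, 79470 and 79969 in saline. This sum was 0.197%, 0.208% and 0.228% of all normalized reads in withdrawal, against 0.171%, 0.177% and 0.175% in saline, so the summed groups did not overlap either. Since reads could be divided between such similar arms in more than one way, the 5p arms were also tested as a single feature. Its log2 fold change was 0.24 ± 0.04 (limma, adjusted p = 0.00662 over 698 features). It passed in 16 of 18 alternative settings, the exceptions being the 2 named above. Without saline library 2 it passed only narrowly (limma adjusted p = 0.0497).

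The balance within the pair moved little. miR-146b-5p made up 91.9%, 92.1% and 92.1% of the summed 5p reads in withdrawal, against 91.6%, 91.8% and 91.8% in saline. The ratio of miR-146b-5p to miR-146a-5p was 11.32, 11.58 and 11.73 in the withdrawal libraries 1, 2 and 3, against 10.92, 11.15 and 11.25 in the saline libraries. The groups did not overlap, though the lowest withdrawal ratio lay close to the highest saline ratio. The mean log2 ratio was 0.06 higher in withdrawal (two-sided exact permutation test over the libraries, p = 0.10, the smallest that 3 against 3 allows). That test cannot reach 0.05 with this number of libraries.

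miR-146b-3p was detected in every library at a small level. It had 25.9, 38.4 and 42.5 normalized reads in the withdrawal libraries 1, 2 and 3, against 27.2, 29.3 and 27.9 in the saline libraries. The groups overlapped, since withdrawal library 1 was the lowest of all 6 while the other two withdrawal libraries were above each control. The means were 35.6 ± 8.68 in withdrawal and 28.2 ± 1.09 in saline (SD, n = 3 each), and the log2 fold change was 0.30 ± 0.24 with a 95% interval of -0.23 to 0.83 (limma, adjusted p = 0.51). The interval holds the change of the 5p arm as well as no change. These values rest on an estimated 26, 43 and 51 reads in withdrawal and 24, 33 and 28 in saline, if a step is 1 read. Counting error alone gives exact Poisson 95% intervals of 16.9 to 37.9 normalized reads for withdrawal library 1 and 31.7 to 55.9 for withdrawal library 3. PCR copies are not independent molecules, so such intervals cover counting error only.

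The guide outnumbered its partner strand by a wide margin in both groups. There were 3094, 2200 and 2194 reads of miR-146b-5p for each read of miR-146b-3p in withdrawal, against 2611, 2486 and 2628 in saline. Withdrawal library 1 was the highest and the other two withdrawal libraries the lowest of all 6, so the groups overlapped. The mean log2 ratio was 0.06 lower in withdrawal (difference -0.06, two-sided exact permutation test, p = 0.90). Its sign turned when withdrawal library 2 or 3 was left out (0.02 in both cases).

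**Figure D2:**
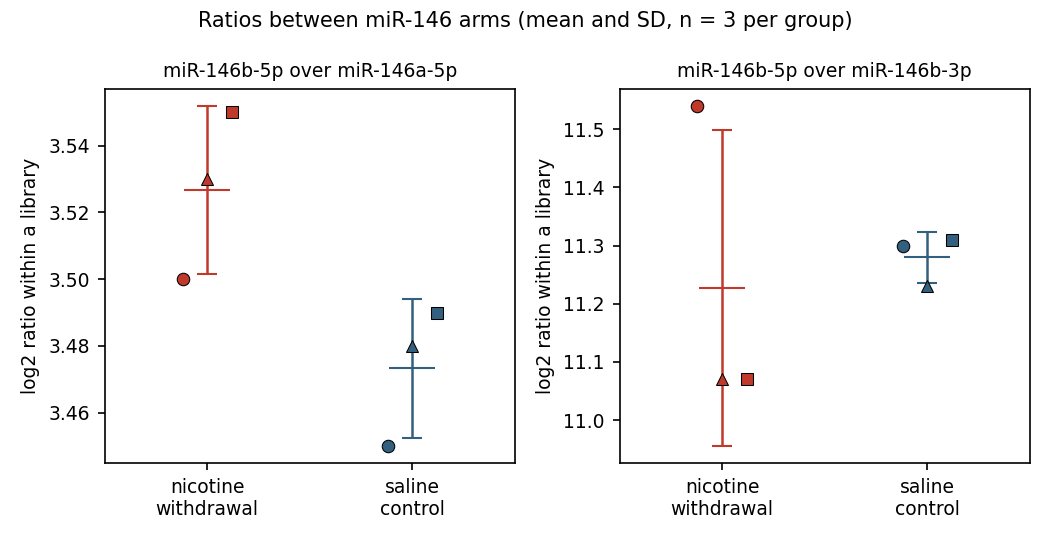
Log2 ratio within each library of miR-146b-5p to miR-146a-5p (left) and of miR-146b-5p to miR-146b-3p (right), withdrawal left of saline in each panel; symbols give the replicate number as circles (1), triangles (2) and squares (3), bars the mean and SD (n = 3 per group), and the axes do not start at 0. The ratio of the 5p arms spans 3.50 to 3.55 in withdrawal and 3.45 to 3.49 in saline, while the ratio to the 3p arm spans 11.07 to 11.54 in withdrawal and 11.23 to 11.31 in saline.

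Calls of a rise were more frequent among the more abundant miRNAs. Of the 320 tested miRNAs with a mean of at least 1000 normalized reads, 16 were called higher, both 5p arms among them, and of the 379 below that level, 5 were. miR-146b-3p, 595th by mean level, had a residual SD of 0.263 on the log2 scale, about that of miRNAs at its level (0.314). At the levels of miR-146a-5p and miR-146b-5p the fitted SD was 0.0447 and 0.0358, so smaller changes could pass there.

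**Figure D3:**
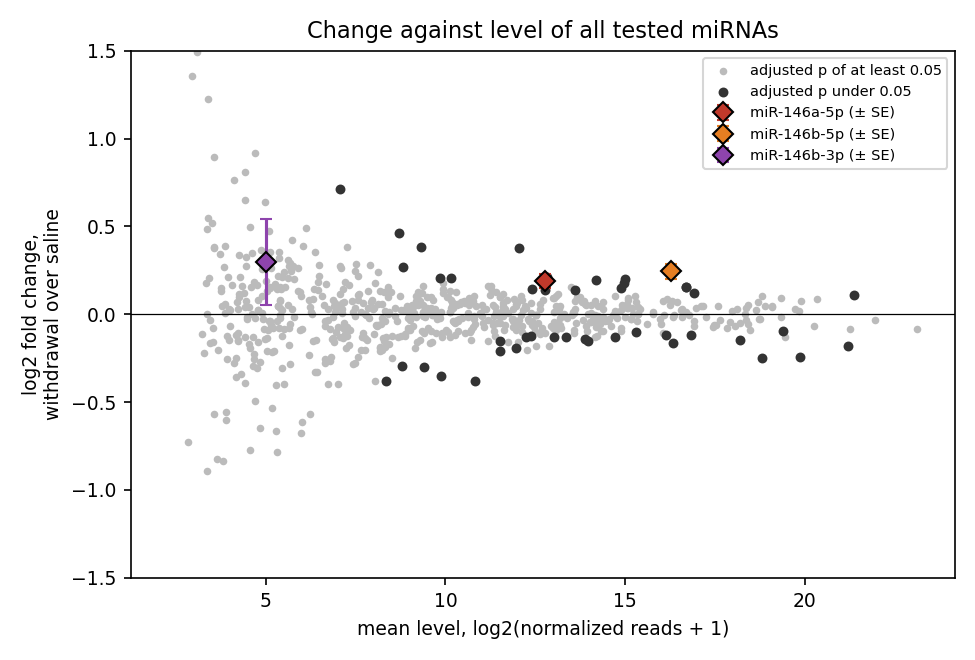
Log2 fold change (withdrawal over saline) against mean level, log2(normalized reads + 1), for the 699 tested miRNAs; 3 lie outside the plotted range of ±1.5. Diamonds with SE bars mark miR-146a-5p (0.19), miR-146b-5p (0.24) and miR-146b-3p (0.30), and dark points the 46 miRNAs with an adjusted p under 0.05.

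Other miRNAs known to respond to NF-kB or Toll-like receptors did not pass the test. Of 9 tested miRNAs of that list, 0 passed in limma with adjustment, where 6.58% of all tested miRNAs did. At that share, 0 of 9 says little about the list. At an unadjusted p under 0.05 there were 3, of which 2, the 5p and 3p arms of miR-9, were higher. The other 1, miR-187-3p, was lower (-0.13 ± 0.04, limma adjusted p = 0.079, named after its value was seen). Over all tested miRNAs 22.9% had such an unadjusted p, so the count of the list is near the background. Its median log2 fold change was 0.04, against 0.00 over all tested miRNAs. The most abundant, miR-9-5p, had 1374900 ± 54472 normalized reads in withdrawal and 1295741 ± 29186 in saline (SD, n = 3 each; log2 fold change 0.09 ± 0.03, limma adjusted p = 0.156). With equal library totals it passed (0.12, limma adjusted p = 0.0429). miR-155-5p, named after its value was seen because inflammatory signals induce it together with miR-146a, had 64.9 ± 12.5 normalized reads in withdrawal and 53.8 ± 9.35 in saline (0.26 ± 0.20, limma adjusted p = 0.473). With an SE of 0.20, a rise of the size seen for the 5p arms could not be told from no change in miR-155-5p. Among the abundant members, miR-125b-5p, miR-132-3p and miR-21a-5p stood at -0.03, -0.02 and 0.04 (SE 0.03 each). The remaining miR-9-3p, miR-21a-3p and miR-147-3p stood at 0.07, 0.04 and -0.04.

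The microglia and leukocyte list held 6 tested miRNAs with a median log2 fold change of 0.04. In limma 0 passed as higher, where 3% of all tested miRNAs did, so this count says little about the list. At an unadjusted p under 0.05 there was 1, which was lower, against 22.9% of all tested miRNAs. That one was miR-150-5p, known from lymphocytes, at -0.13 ± 0.03 (limma adjusted p = 0.0246), a call that held in 11 of 18 alternative settings. The most abundant, miR-342-3p, had 34543 ± 1587 normalized reads in withdrawal and 33125 ± 1730 in saline (0.06 ± 0.04, limma adjusted p = 0.413). The others did not pass, with miR-223-3p, miR-142a-3p and miR-142a-5p at 0.15, 0.01 and -0.06, and miR-155-5p as given above. Of the 6, 4 had a positive log2 fold change. The list's summed level was 68608 to 72176 in withdrawal and 69704 to 72652 in saline, which overlap. Most of this sum was miR-342-3p and miR-150-5p, so it says little about the scarcer members. None of the members was at 0 in any library. miR-155-5p is counted in both lists.

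Markers of other cells moved in both directions. Over all tested miRNAs 6.58% passed in limma with adjustment, and counts in lists this short say little against that share. In the erythroid list 1 of 4 passed: miR-486a-5p rose by 0.16 ± 0.03 (limma adjusted p = 0.00673). The others did not pass and stood at 0.15 (miR-451a), 0.07 (miR-144-5p) and 0.01 (miR-144-3p). The list's sum was 123019 to 126250 in withdrawal and 110515 to 113344 in saline, most of it miR-486a-5p (means of 111256 and 99718). In the endothelial list 1 of 2 passed: miR-126a-3p fell by 0.10 (SE 0.03, limma adjusted p = 0.0347; 12 of 18 alternative settings), with sums of 303351 to 313594 in withdrawal and 319628 to 324696 in saline. The most abundant endothelial miRNA, miR-126a-5p, stood at -0.07 ± 0.03 (limma adjusted p = 0.156). These sums did not overlap between groups, which was also so for the single values of 27.6% of all tested miRNAs. The part of these lists in the miR-146 result was not tested.

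The oligodendrocyte and neuron lists had lower sums in withdrawal. For 4 oligodendrocyte miRNAs the sum was 107207 to 110571 in withdrawal and 113199 to 119834 in saline, and miR-338-3p, the most abundant, fell by 0.16 (SE 0.03, limma adjusted p = 0.00723). The others did not pass and stood at 0.11 (miR-338-5p), 0.08 (miR-219a-5p) and -0.03 (miR-219a-2-3p), so the median of the list was 0.03. For 4 neuron miRNAs it was 1458946 to 1508092 in withdrawal and 1587498 to 1625842 in saline. There miR-138-5p fell by 0.25 (SE 0.05, limma adjusted p = 0.00934), and the most abundant, miR-128-3p, stood at -0.13 ± 0.04 (limma adjusted p = 0.0543). The other two, miR-124-3p and miR-137-3p, stood at 0.05 and 0.01 and did not pass, and the median of the list was -0.06. Of the 2 choroid plexus miRNAs 0 passed (1 at an unadjusted p under 0.05, against 22.9% of all tested miRNAs), with miR-204-5p at 0.07 ± 0.03 (limma adjusted p = 0.156) and sums of 90886 to 93506 in withdrawal and 86967 to 90455 in saline. No listed marker was at 0 in any library, and the part of these lists in the result was not tested.

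**Figure D4:**
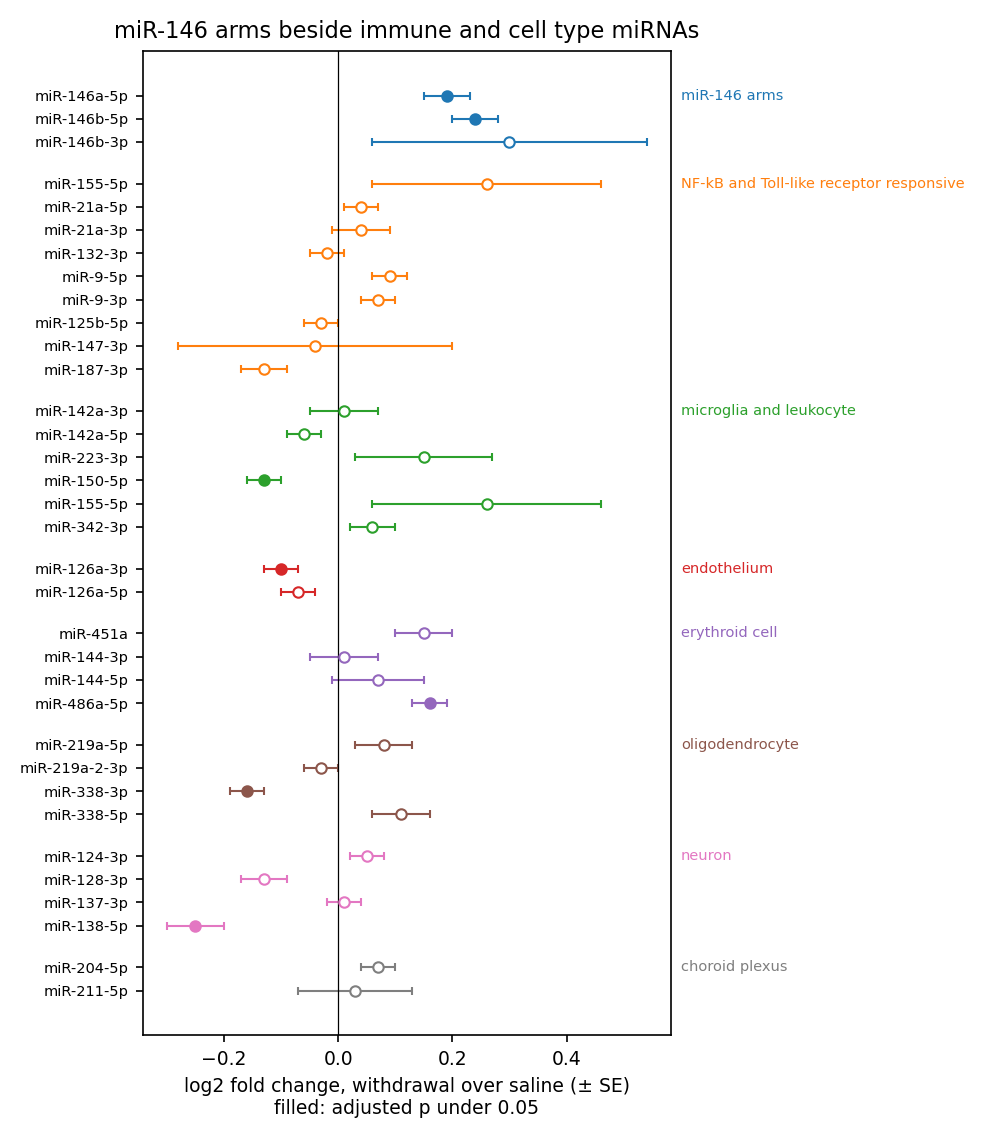
Log2 fold change (withdrawal over saline, ± SE) of the 3 miR-146 arms, at the top, and of the members of 7 lists of immune and cell type miRNAs; filled points have an adjusted p under 0.05. The 5p arms are filled at 0.19 and 0.24, none of the 9 miRNAs responsive to NF-kB or Toll-like receptors is filled, and the only filled point among the microglia and leukocyte miRNAs is miR-150-5p at -0.13. Over all tested miRNAs 6.58% had an adjusted p under 0.05.

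Across the 6 libraries each 5p arm was the closest match of the other. Likeness was Pearson's r of log2(value + 1) over the libraries, among the 699 tested miRNAs; the points share libraries and size factors, and the group difference enters r. miR-146a-5p and miR-146b-5p had r = 0.995, and how reads that match both were assigned is not known here. The next closest to miR-146a-5p were miR-344b-3p (r = 0.991), miR-10b-5p (r = 0.984), miR-182-5p (r = 0.983) and miR-449a-5p (r = 0.983). For miR-146b-5p they were miR-449a-5p (r = 0.992), miR-344b-3p (r = 0.987), miR-7a-5p (r = 0.980) and miR-7b-5p (r = 0.976). Of these, miR-182-5p, miR-10b-5p and miR-7a-5p passed the test as higher, by 0.38 ± 0.06, 0.38 ± 0.08 and 0.21 ± 0.05 (limma, adjusted p = 0.00673, 0.0130 and 0.0357), and held in 16, 14 and 12 of 18 alternative settings.

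miR-146b-3p did not follow its own guide most closely. Its r was 0.844 with miR-146b-5p, for which it was the 48th closest miRNA, and 0.825 with miR-146a-5p, for which it was the 52nd. The 5 closest to it were miR-185-5p (r = 0.931), miR-21a-5p (r = 0.908), miR-449a-5p (r = 0.891), miR-101b-3p (r = 0.883) and miR-129-5p (r = 0.881). None of these 5 passed in limma, and with counts this small their order is uncertain.

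**Figure D5:**
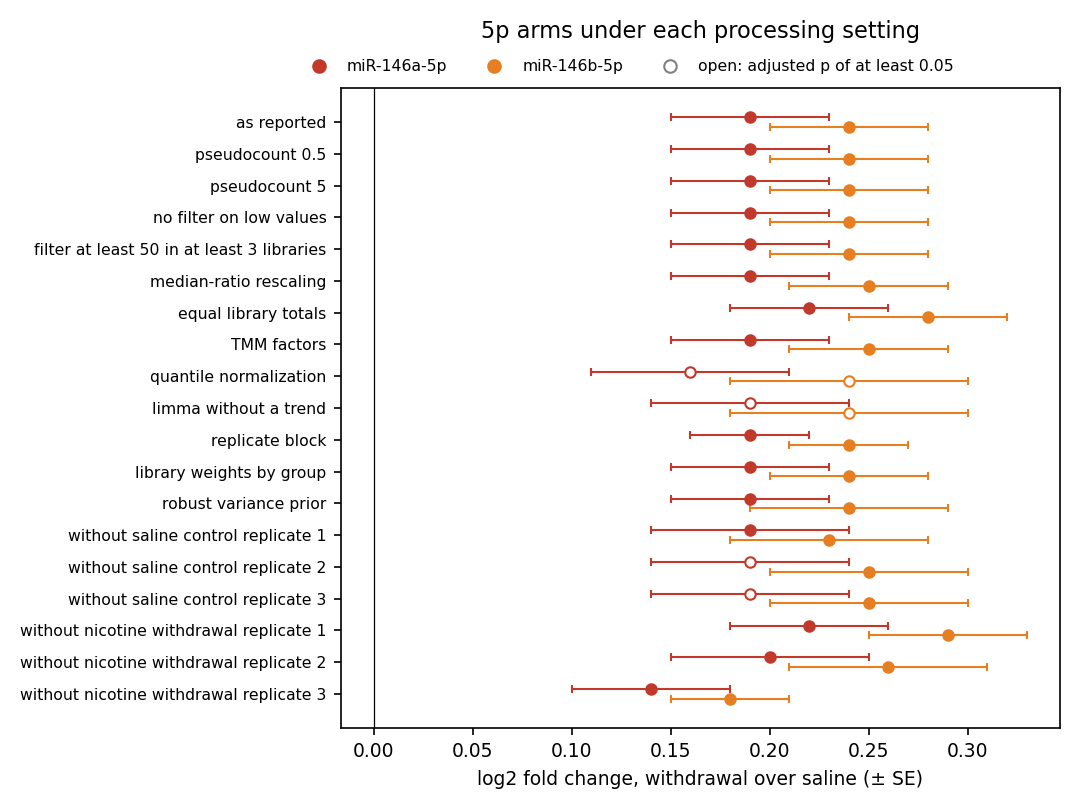
Log2 fold change (withdrawal over saline, ± SE) of miR-146a-5p and miR-146b-5p as reported and under 18 alternative settings, one per line; open points have an adjusted p of at least 0.05. The values run from 0.14 to 0.22 for miR-146a-5p, open in 4 settings, and from 0.18 to 0.29 for miR-146b-5p, open in 2.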

How the data were processed

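Small RNA libraries were made with a TruSeq kit from Trizol-extracted RNA, per the labels' protocols. The deposited table holds normalized signal: counts per miRNA scaled by library size factors, as its values show. DESeq2 and the build mm9 are listed, without version or role, per the submitters' processing notes. For the aligner, the miRNA release and the handling of reads that match several miRNAs: not given in the sources used here. Each library has a step of its own, and 100% of its values are multiples of that step to a tolerance of 0.01 steps, but the smallest positive value was 4 or 5 steps. Reads estimated from the step therefore hold only if a step is 1 read, a listed 0 may hide smaller values, and no count test was run. The estimates serve library depth, the comparison of libraries within a group, one of the scalings and the counting intervals of miR-146a-5p and miR-146b-3p.

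Values were taken as log2(value + 1), and the 699 miRNAs with at least 10 in at least 3 libraries were tested with limma 3.58.1 (R 4.3.3) letting the variance follow the level (two-sided; Benjamini-Hochberg adjusted p under 0.05). For low miRNAs this scale makes fold changes look smaller than they are. Single ratios were tested by exact permutation over libraries. The code was tested on simulated data. Libraries of one group differed beyond sampling noise (chi-square of 22.9 to 170 per degree of freedom).

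The members and lists were chosen with earlier results of these data known. Named by rule are the miR-146 rows, the most abundant member and those past the threshold of each list, and the 5 miRNAs most alike to each member. Other list members were named after their values were seen, and are not in the counts over settings. The sequence table matched 654 of 756 rows by name, and its coordinates are GRCm38.p6. Alternatives were pseudocounts of 0.5 and 5, filters, 4 scalings, no trend, a block for the replicate number, and single libraries left out; library weights by group and a robust variance prior were chosen after seeing the data. Python 3.11.15, pandas 2.3.3 and matplotlib 3.10.9 served tables and plots.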

Additional observations from a re-analysis of the deposited data

How the results depend on the processing

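The rises of miR-146a-5p and miR-146b-5p kept their direction in all 18 settings run for each, and passed in 14 and 16 of them. Without a trend of variance on level miR-146a-5p stood at 0.19, miR-146b-5p and their sum at 0.24 (limma adjusted p = 0.216, 0.205 and 0.206), and the count of called miRNAs was 0 (46 as reported). With quantile normalization they stood at 0.16, 0.24 and 0.19 (limma adjusted p = 0.191, 0.078 and 0.0914), and the count was 22. The cause was not tested in either case. With one library left out the log2 fold change was 0.14 to 0.22 for miR-146a-5p, 0.18 to 0.29 for miR-146b-5p and for their sum, the log2 ratio difference of the 5p arms 0.04 to 0.07, that of miR-146b-5p to miR-146b-3p -0.21 to 0.02, and the count 13 to 58 (13, 22 and 21 without saline 2, saline 3 and withdrawal 2). With equal library totals 61 passed (46 higher, 15 lower), against 21 higher and 25 lower as reported, and the 5p arms stood at 0.22 and 0.28. With the replicate block 106 passed (49 higher, 57 lower), all 46 among them, and the 5p arms passed at 0.19 and 0.24 (limma adjusted p = 0.00209 and 0.00032). The deviations of same-numbered libraries correlated at -0.07, 0.09 and 0.04, and in 3 of 6 libraries the same number was the best match, so the numbers were not taken as pairs. miR-21a-5p turned to -0.01 with quantile normalization. Of the values of other miRNAs named by rule and the arm ratio in these settings, 318 kept direction and side. Among the rest, 18 newly passed, 30 no longer passed and 3 changed sign. Count tests planned for recovered reads were not run. miR-146b-3p, at an estimated 24 to 51 reads per library, passed in 0 of 17 settings (0.16 to 0.51); the part of depth in this was not tested.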
